A study of Homo sapiens with 9 samples.

Results

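The 10 genes described here encode the DNA-binding subunits of the transcription factor NF-kappa-B (NFKB1, NFKB2, REL, RELA and RELB), 3 of its inhibitors (NFKBIA, NFKBIE and TNFAIP3) and both cellular inhibitors of apoptosis, the cIAPs (BIRC2 and BIRC3). They were chosen by symbol. Each of the 10 symbols matched 1 Ensembl gene identifier among the 58395 identifiers counted, and all 10 were among the 16575 genes with enough reads to test, with 444 to 17943 reads per gene and library. RNA came from MDA-MB-231, a cell line of human breast cancer of the triple-negative kind, taken 96 h after reverse transfection of siRNA. The 3 groups were a nontargeting control siRNA (NC), SKP2 siRNA_1 (SKP2-1) and SKP2 siRNA_2 (SKP2-2), each in 3 libraries. All libraries come from the 1 cell line, and every group received an siRNA, so no untransfected cells enter any comparison. Whether replicates were separate cultures is not stated in the labels; each p-value therefore reflects only the scatter among these libraries, which may be technical.

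NF-kappa-B subunits act as dimers that bind kappa-B sites in DNA. In resting cells most dimers are held in the cytoplasm by I-kappa-B proteins, and an activated kinase complex, IKK, marks I-kappa-B for ubiquitination by an SCF ligase and destruction. In the canonical arm this releases mainly dimers of p50 (from NFKB1) with RELA or REL. In the noncanonical arm, p100 (from NFKB2) is cut to p52, which acts with RELB, and the cIAPs restrain this arm by keeping the kinase NIK (MAP3K14) low. Several of these genes, among them NFKBIA, TNFAIP3 and BIRC3, are themselves NF-kappa-B target genes, and the inhibitors NFKBIA and TNFAIP3 so serve as feedback. SKP2, the gene targeted here, encodes the substrate-binding subunit of another SCF ligase.

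The libraries held 35.5 to 49.9 M gene counts. Levels are given as normalized CPM, read counts scaled to a common library size. The SKP2 level was 57.5 to 64.9 CPM in NC, 3.31 to 3.91 CPM with SKP2-1 and 5.69 to 6.11 CPM with SKP2-2. The series' design text names ZIP7 (SLC39A7) as the siRNA target, and that gene's level was 335 to 352 CPM in NC, 342 to 344 CPM with SKP2-1 and 358 to 376 CPM with SKP2-2. The summed level of 6 markers of this mesenchymal-like line, such as VIM, was 6707 to 6809 CPM in NC, 6857 to 6970 CPM with SKP2-1 and 7753 to 7983 CPM with SKP2-2; 2 were higher and 3 lower with SKP2-1, and 4 higher with SKP2-2. The sum of 5 epithelial genes that are low in this line was 94.3 to 140.3, 122 to 131 and 100.3 to 145 CPM, low beside the first list but not near 0. Of these 5, 2 were higher and 1 lower with SKP2-1, and 1 was lower with SKP2-2. The lower gene was CDH1 in both comparisons (log2 fold change -0.61 and -1.67). By the test described below, 25% of all genes were higher and 20.5% lower with SKP2-1, and 25.2% and 24.1% with SKP2-2. ESR1, the oestrogen receptor gene, was at 0.0597, 0.0396 and 0.224 CPM in the group means. The NC and SKP2-2 libraries were less uniform than the SKP2-1 libraries. Across 16575 genes, the deviations of NC replicate 1 and SKP2-2 replicate 3 from their group means correlated at 0.72, and those of NC replicate 3 and SKP2-2 replicate 1 at 0.67, a description over genes that are not independent. NC replicate 1 and NC replicate 3, and likewise SKP2-2 replicates 3 and 1, thus lay at opposite ends of their groups. Values without both NC replicate 1 and SKP2-2 replicate 3 are given for named genes of the pathway where they change a call or where a gene follows this spread. Counts over gene lists use all 9 libraries, and several of them differ without those libraries.

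The promoters of these genes were read for the kappa-B consensus, the 10-letter motif that NF-kappa-B dimers bind, because several of the genes are known targets of the factor. RefSeq (GRCh38.p14) gave 13 promoter windows for 8 of the 10 genes, each from 250 bases before a start site to 50 after it. RELB and NFKBIE had no window. The consensus was matched on either strand in 7 of the 13 windows, which belong to 6 genes. Of all 35116 windows of this length in the table, 11.3% held a match, without any matching for base composition. NFKB1, NFKB2, REL, NFKBIA, TNFAIP3 and BIRC3 held matches, and the windows of RELA and BIRC2 held none. A match describes the letters only and does not show that the factor binds there. Stretches of 30 bases follow, read 5′ to 3′ on the gene's strand, with the matched letters in capitals. Where capitals run past 10 letters, matches on both strands overlap. Not every match is printed here. NFKB2 also held GGGGCTTTCC at -78 and GGGGCTTCCC at -176 bases from the start sites of their windows, and the BIRC3 matches are shown further below.
NFKB1, chr4:102501300-102501329, plus strand: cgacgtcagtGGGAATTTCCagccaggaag
NFKB2, chr10:102394462-102394491, plus strand: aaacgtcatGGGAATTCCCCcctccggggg
NFKB2, chr10:102395674-102395703, plus strand: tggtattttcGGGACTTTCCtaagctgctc
REL, chr2:60881518-60881547, plus strand: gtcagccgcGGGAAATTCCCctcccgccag
NFKBIA, chr14:35404811-35404840, minus strand: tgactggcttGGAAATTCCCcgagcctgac
TNFAIP3, chr6:137867188-137867217, plus strand: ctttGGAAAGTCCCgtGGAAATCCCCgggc
The REL and NFKBIA stretches share the letters GGAAATTCCC, and TNFAIP3 holds a pair of matches next to each other. Measured from the start site of its own window, the nearest match began 49 bases before it in NFKB1, 21 in NFKB2, 46 in REL, 81 in NFKBIA, 55 in TNFAIP3 and 135 in BIRC3.

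**Figure D1:**
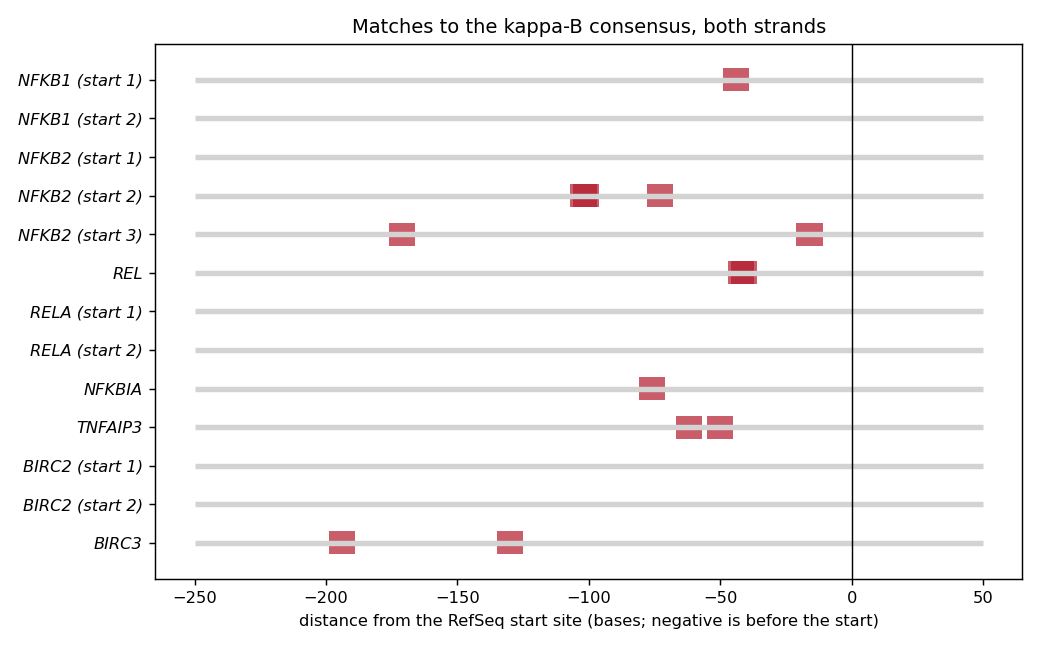
Positions of matches to the kappa-B consensus (red blocks, both strands) along the 13 RefSeq promoter windows, with distance from the start site in bases on the x axis and 1 grey line per window. Matches lie before the RefSeq start site in 7 windows, and the windows of RELA and BIRC2 hold none. By the gene coordinates given below, the matches of NFKB2, REL and TNFAIP3 lie inside the annotated gene.

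The level per length, as normalized CPM per kb of annotated exon, gives the order of the genes within a group. In NC, NFKBIA was highest (55.95 ± 1.65, SD, n = 3), followed by BIRC3 (46.3 ± 4.42), BIRC2 (41.2 ± 1.72) and NFKB2 (40.9 ± 2.13). BIRC3 and BIRC2 overlapped in their libraries, as did BIRC2 and NFKB2. RELA (18.5 ± 2.23) and NFKB1 (14.1 ± 0.815) came next, and NFKBIE (10.8 ± 1.83), RELB (8.62 ± 2.29) and TNFAIP3 (6.62 ± 0.243) each overlapped with the neighbour in the order. REL was lowest, at 1.52 ± 0.0777 CPM per kb. With SKP2-1 the order was the same except that TNFAIP3 stood above RELB. With SKP2-2, BIRC3 moved from second to seventh place (10.8 ± 0.182), between NFKBIE (14.5 ± 2.20), which overlapped with NFKB1 above it, and RELB (9.58 ± 1.82), with which BIRC3 overlapped, and NFKB2 (46.3 ± 2.01) and NFKBIA (45.9 ± 0.28) overlapped at the top. Of the 13170 exon bases of REL, 5702 are shared with a noncoding gene on the same strand that was listed at 0 counts in each library. Reads there were not assigned to REL if they were counted as ambiguous. If no read in the shared part was assigned to REL, its level over the other 7468 bases was 2.69 CPM per kb in NC, still below TNFAIP3. With the longest transcript as the length, NC values were higher for 9 of the genes (NFKBIA 85.2, BIRC3 67.0, NFKB2 53.7 and BIRC2 45.9 CPM per kb), and NFKB2 then stood above BIRC2 and RELB (11.4) above NFKBIE (10.8).

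**Figure D2:**
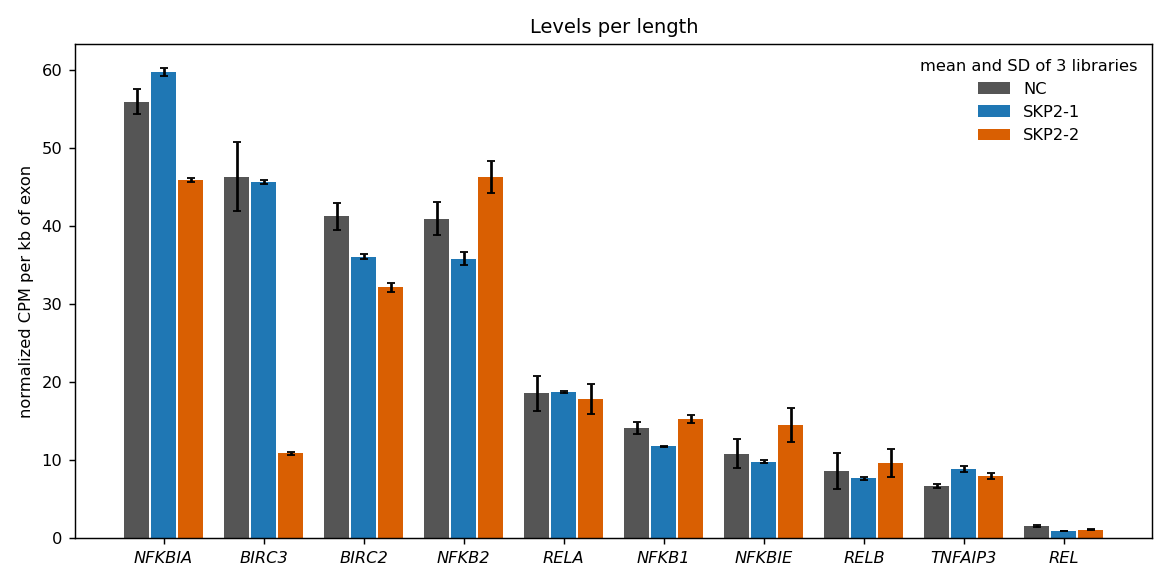
Mean level per kb of exon (normalized CPM per kb) of each gene in NC, SKP2-1 and SKP2-2; bars are means and error bars the SD of 3 libraries. BIRC3 falls from 46.3 in NC to 10.8 with SKP2-2, while REL stays lowest in the 3 groups.

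Against NC, SKP2-1 changed 5 of the 10 genes, with 1 higher and 4 lower, and SKP2-2 changed 7, with 3 higher and 4 lower. The test was edgeR's quasi-likelihood F test on all 9 libraries, and a gene was called at a Benjamini-Hochberg adjusted p under 0.05 over all genes tested. By this rule 45.5% of all genes were called with SKP2-1 (25% higher and 20.5% lower) and 49.4% with SKP2-2 (25.2% higher and 24.1% lower). The 5 of 10 called with SKP2-1 were near that background and the 7 of 10 with SKP2-2 above it, and 4 of 10 lower is more than the background share with each siRNA; with 10 chosen genes nothing further is read from these counts. The median log2 fold change over the 10 genes was -0.16 with SKP2-1 and 0.03 with SKP2-2, against 0.02 and 0.03 over all genes tested. The siRNAs differed from each other in 8 of the 10 genes, 4 higher and 4 lower with SKP2-2, where 50.5% of all genes were called. Levels of both groups did not overlap for 6 of the 10 genes with SKP2-1, 7 with SKP2-2 and 9 between the siRNAs, against 54.8%, 53.6% and 64% of all genes. Both comparisons with NC use the same 3 NC libraries. In bulk RNA, fewer cells of a type and less RNA per cell cannot be told apart.

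**Figure D3:**
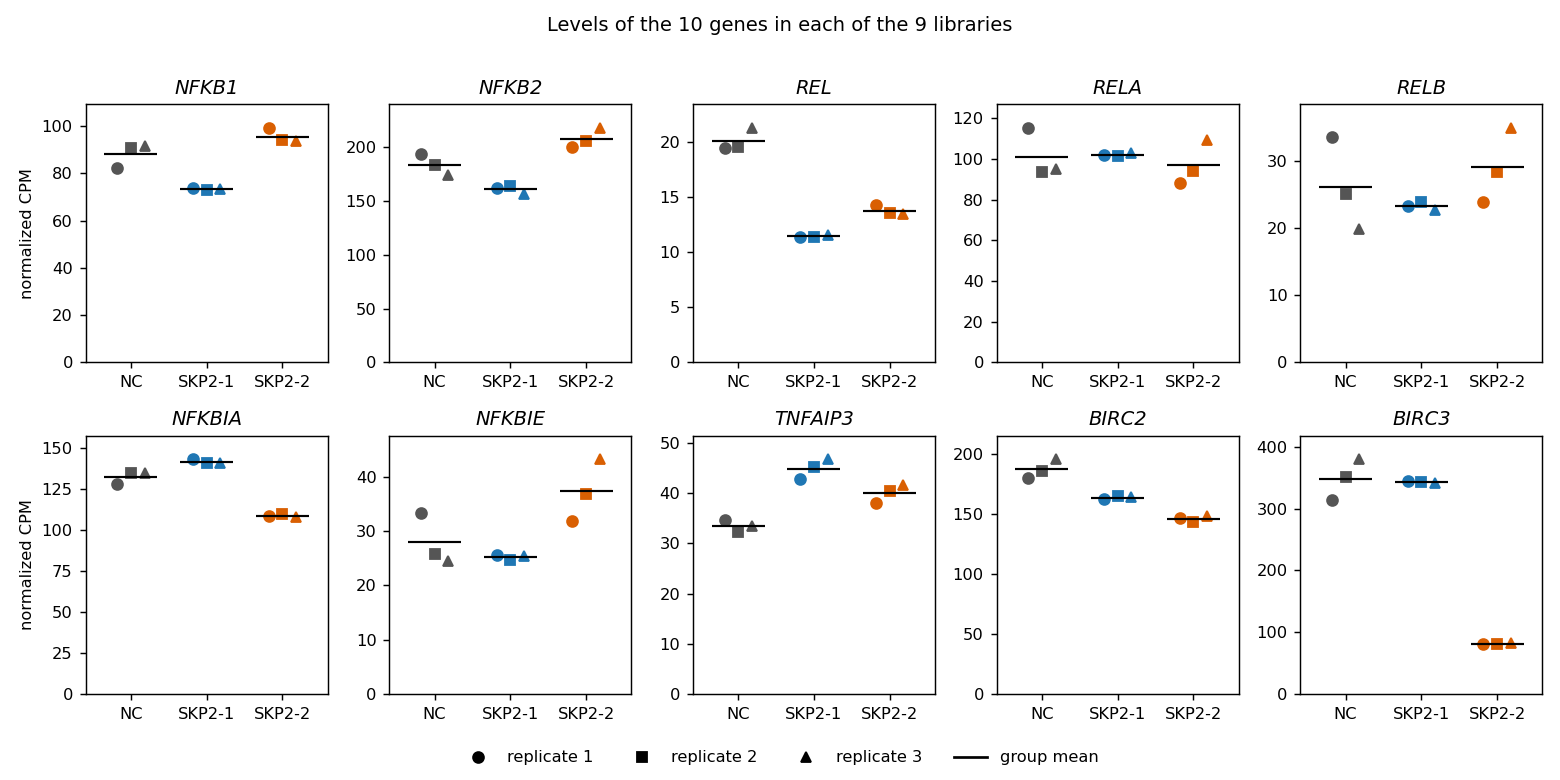
Normalized CPM of each gene (y axis, from 0, own scale per gene) in the 9 libraries, grouped by siRNA; symbols mark the replicate number and lines the group mean. The 3 SKP2-2 libraries of BIRC3 sit between 80.5 and 83.1 CPM, far below the 6 others, while RELA overlaps between the groups.

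Among the subunits, REL fell with both siRNAs, NFKB1 and NFKB2 fell with SKP2-1, and NFKB2 was higher with SKP2-2. REL (ENSG00000162924, chromosome 2, 60881521 to 60931610, GRCh38) encodes c-Rel, a subunit with a transactivation domain that is best known from lymphocytes. Its level was 19.5, 19.5 and 21.2 CPM in NC replicates 1 to 3, 11.4, 11.4 and 11.6 CPM with SKP2-1, and 14.3, 13.5 and 13.4 CPM with SKP2-2. The 3 groups did not overlap, with NC highest and SKP2-1 lowest. REL was 1.75 times lower with SKP2-1 (log2 fold change -0.81, SE 0.06, adjusted p = 3.06e-07), and the decrease with SKP2-2 was 1.46-fold (-0.55, SE 0.06, adjusted p = 9.55e-06). The siRNAs differed by 0.26 (SE 0.06, adjusted p = 0.00396), so the level was lower with SKP2-1 than with SKP2-2. Of all genes tested, 10.5% had a larger absolute change with SKP2-1 and 24.6% with SKP2-2.

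NFKB1 (ENSG00000109320, chromosome 4, 102501329 to 102617302) encodes p105, the precursor of p50. It was at 82.3, 90.8 and 91.4 CPM in NC, 73.9, 73.0 and 73.2 CPM with SKP2-1, and 99.2, 94.0 and 93.5 CPM with SKP2-2. The SKP2-1 libraries lay below the lowest NC library and the SKP2-2 libraries above the highest. NFKB1 was 1.201 times lower with SKP2-1 (log2 fold change -0.26, SE 0.05, adjusted p = 0.000641). Its value with SKP2-2 was 0.12 (SE 0.05, adjusted p = 0.0678), short of the threshold, and it passed without NC replicate 3 (0.14, adjusted p = 0.0351; 0.0103 to 0.356 across alternatives). Between the siRNAs NFKB1 was 1.30-fold higher with SKP2-2 (0.38, SE 0.05, adjusted p = 2.65e-05).

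NFKB2 (ENSG00000077150, chromosome 10, 102394110 to 102402529) encodes p100, which is both the precursor of p52 and an inhibitor of RELB. Its level was 193, 183 and 174 CPM in NC, 162, 163 and 156 CPM with SKP2-1, and 199.9, 205 and 218 CPM with SKP2-2. No group overlapped with another, and NC stood between the siRNAs. NFKB2 was 1.14 times lower with SKP2-1 (log2 fold change -0.19, SE 0.05, adjusted p = 0.0064) and 1.13-fold higher with SKP2-2 (0.18, SE 0.05, adjusted p = 0.00914). The rise with SKP2-2 did not pass without SKP2-2 replicate 1 (0.16, adjusted p = 0.0599), with genes kept at 1 CPM or more (0.14, adjusted p = 0.0514) or with only both compared groups in the fit (0.15, adjusted p = 0.0568; 0.000747 to 0.0599 across alternatives). Between the siRNAs NFKB2 was 1.29-fold higher with SKP2-2 (0.37, SE 0.05, adjusted p = 3.64e-05). NFKB1 and NFKB2, the 2 genes whose products are cut to p50 and p52, thus stood 1.30-fold and 1.29-fold higher with SKP2-2 than with SKP2-1.

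RELA and RELB passed the threshold in none of the 3 comparisons by edgeR's quasi-likelihood test. RELA (ENSG00000173039, chromosome 11, 65653596 to 65663094, minus strand) encodes p65, the main transactivating subunit of the canonical arm. It was at 115, 93.5 and 94.9 CPM in NC, 102, 102 and 103 CPM with SKP2-1, and 88.3, 94.2 and 109 CPM with SKP2-2. The groups overlapped, and NC replicate 1 and SKP2-2 replicate 3 were the highest libraries of their groups. The log2 fold change was 0.01 with SKP2-1 (approximate 95% interval -0.17 to 0.20, from the SE) and -0.06 with SKP2-2 (-0.24 to 0.13), with adjusted p of 0.925 and 0.651. Without both of those libraries RELA was 0.10 higher with SKP2-1 than in NC (adjusted p = 0.0263) and 0.15 lower with SKP2-2 than with SKP2-1 (-0.15, adjusted p = 0.00283).

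RELB (ENSG00000104856, chromosome 19, 45001430 to 45038198) encodes the transactivating partner of p52. Its level was 33.6, 25.1 and 19.8 CPM in NC, 23.3, 23.9 and 22.7 CPM with SKP2-1, and 23.9, 28.4 and 34.9 CPM with SKP2-2. The NC libraries alone spanned the whole SKP2-1 range, and again NC replicate 1 and SKP2-2 replicate 3 were highest. The log2 fold change was -0.16 with SKP2-1 (approximate 95% interval -0.58 to 0.25, adjusted p = 0.574) and 0.16 with SKP2-2 (-0.26 to 0.57, adjusted p = 0.581). Without both libraries the values were 0.04 (adjusted p = 0.8) and 0.22 (adjusted p = 0.157). The sign also changed with SKP2-1 without NC replicate 1 alone, and with SKP2-2 without NC replicate 3 (-0.01), so the direction against NC was not stable. Between the siRNAs RELB was at 0.32 (approximate 95% interval -0.09 to 0.73, adjusted p = 0.25), short of the threshold. That value was positive in all 17 alternatives (0.17 to 0.43), and the lowest SKP2-2 library (23.92 CPM) lay just above the highest SKP2-1 library (23.895 CPM). The interval rests on an SE of 0.21 from all 9 libraries, the widely spread NC libraries among them. With only both compared groups in the edgeR fit the SE was 0.14 and the adjusted p 0.0956, still short of the threshold.

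**Figure D4:**
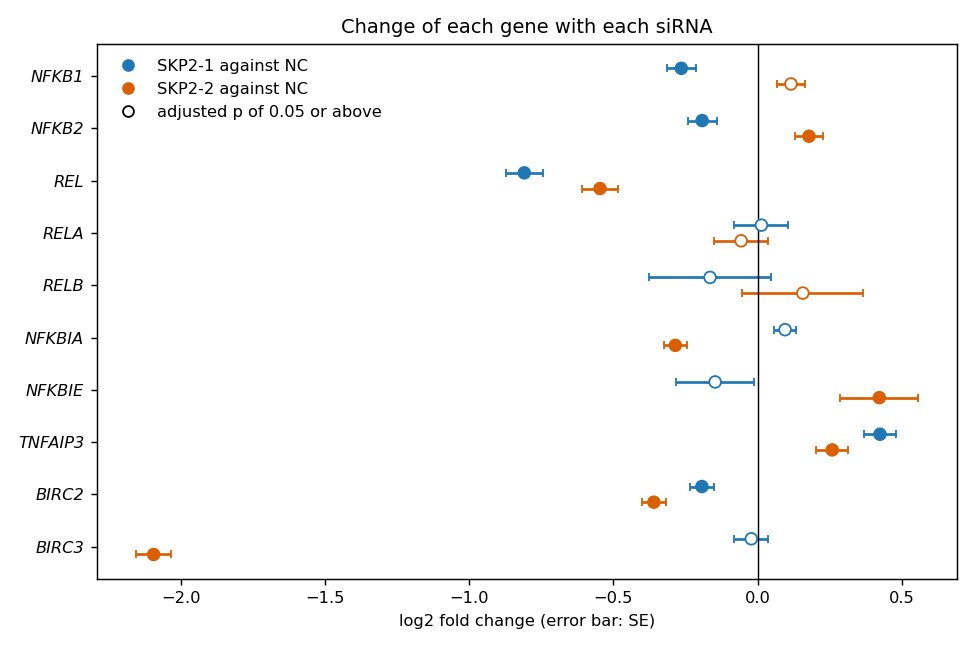
Log2 fold change of each gene against NC with SKP2-1 (blue) and SKP2-2 (orange); error bars are the SE and open circles did not reach an adjusted p under 0.05. REL and BIRC2 lie below 0 and TNFAIP3 above 0 with both siRNAs, while BIRC3 lies at -2.10 with SKP2-2 and at -0.02 with SKP2-1.

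Of the inhibitors, TNFAIP3 rose with both siRNAs, NFKBIA fell with SKP2-2, and NFKBIE was higher with SKP2-2. TNFAIP3 (ENSG00000118503, chromosome 6, 137867188 to 137883312) encodes A20, a ubiquitin-editing enzyme that shuts off signalling upstream of IKK. It was at 34.6, 32.2 and 33.6 CPM in NC, 42.8, 45.1 and 46.7 CPM with SKP2-1, and 38.0, 40.4 and 41.6 CPM with SKP2-2. Every knockdown library lay above every NC library. TNFAIP3 was 1.34-fold higher with SKP2-1 (log2 fold change 0.42, SE 0.06, adjusted p = 3.46e-05) and 1.197-fold higher with SKP2-2 (0.26, SE 0.06, adjusted p = 0.00171). Compared with SKP2-1, TNFAIP3 was lower with SKP2-2 (-0.17, SE 0.06, adjusted p = 0.0242), and that call was lost in 5 of the 17 alternatives, among them without SKP2-1 replicate 3 (-0.14, adjusted p = 0.111; 0.0059 to 0.111 across alternatives). It was also lost without SKP2-1 replicate 2 (adjusted p = 0.0694), without SKP2-2 replicate 1 (0.0829) and without SKP2-2 replicate 2 (0.0559). An antisense gene, WAKMAR2, shares 95 exon bases with TNFAIP3, and its level was at most 0.426 CPM in any library.

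NFKBIA (ENSG00000100906, chromosome 14, 35401511 to 35404749, minus strand) encodes I-kappa-B alpha, the inhibitor that is destroyed and resynthesized in each round of canonical signalling. It was at 128, 135 and 135 CPM in NC, 143, 141 and 141 CPM with SKP2-1, and 109, 109.7 and 108 CPM with SKP2-2. The groups did not overlap, and the SKP2-2 libraries were lowest. NFKBIA was 1.22 times lower with SKP2-2 (log2 fold change -0.29, SE 0.04, adjusted p = 4.78e-05). Its value with SKP2-1 was 0.10 (SE 0.04, adjusted p = 0.0652), which passed without NC replicate 3 (0.11, adjusted p = 0.0393; 0.0239 to 0.43 across alternatives). The siRNAs differed by -0.38 (SE 0.04, adjusted p = 3.4e-06), and NFKBIA was 1.30 times lower with SKP2-2.

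NFKBIE (ENSG00000146232, chromosome 6, 44258166 to 44265788, minus strand) encodes I-kappa-B epsilon, which holds RELA and REL dimers in the cytoplasm. Its level was 33.3, 25.8 and 24.6 CPM in NC, 25.5, 24.6 and 25.4 CPM with SKP2-1, and 31.9, 36.9 and 43.2 CPM with SKP2-2. SKP2-2 overlapped with NC through NC replicate 1 and did not overlap with SKP2-1. NFKBIE was 1.34-fold higher with SKP2-2 than in NC (log2 fold change 0.42, SE 0.14, adjusted p = 0.0302) and 1.48-fold higher than with SKP2-1 (0.57, SE 0.14, adjusted p = 0.00772). The call against NC was lost without NC replicate 2 (0.37, adjusted p = 0.0978), NC replicate 3 (0.34, 0.107), SKP2-2 replicate 2 (0.43, 0.0684) or SKP2-2 replicate 3 (0.30, 0.0728), and held without both NC replicate 1 and SKP2-2 replicate 3 (0.45, adjusted p = 3.09e-05). It was lost in 7 of the 17 alternatives in all (adjusted p = 4.91e-06 to 0.107 across alternatives). With SKP2-1 the value was -0.15 (SE 0.14, adjusted p = 0.423).

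The cIAP genes parted: BIRC3 was 4.27 times lower with SKP2-2 alone of the siRNAs, and BIRC2 fell by less with both. BIRC3 (ENSG00000023445, chromosome 11, 102317450 to 102339403) encodes cIAP2, a ubiquitin ligase of TNF receptor complexes whose gene is an NF-kappa-B target. Its level was 314, 352 and 379.7 CPM in NC, 345, 343 and 341 CPM with SKP2-1, and 80.5, 81.0 and 83.1 CPM with SKP2-2. These are 11156, 15914 and 17943 reads in NC and 3263, 3573 and 3876 reads with SKP2-2, so counting error is small beside the difference. The SKP2-2 libraries lay far below the others, and SKP2-1 lay inside the NC range. The log2 fold change was -2.10 with SKP2-2 (SE 0.06, adjusted p = 5.05e-11), and 0.428% of the genes tested had a larger absolute change. With SKP2-1 it was -0.02 (approximate 95% interval -0.14 to 0.09, adjusted p = 0.793). That value passed as a fall of small size without NC replicate 1 (-0.10, adjusted p = 0.0325) and with both NC replicate 1 and SKP2-2 replicate 3 left out (-0.11, adjusted p = 0.0184; 0.0184 to 0.887 across alternatives). Between the siRNAs BIRC3 was 4.21 times lower with SKP2-2 (-2.07, SE 0.06, adjusted p = 3.62e-11).

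The sequence before BIRC3 is shown at greater length because this gene changed most. On GRCh38.p14, chr11:102317234-102317449 on the plus strand ends at the base before the annotated gene and holds both matches to the kappa-B consensus, in capitals.
BIRC3 upstream: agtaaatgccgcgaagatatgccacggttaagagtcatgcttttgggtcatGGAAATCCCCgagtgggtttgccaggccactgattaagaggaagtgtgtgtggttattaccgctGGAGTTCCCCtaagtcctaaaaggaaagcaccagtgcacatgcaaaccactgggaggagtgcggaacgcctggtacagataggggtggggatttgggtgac
The first match, GGAAATCCCC, has the same letters as the second match of TNFAIP3, a gene that was higher with SKP2-2 while BIRC3 was lower.

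BIRC2 (ENSG00000110330, chromosome 11, 102347211 to 102378670) lies next to BIRC3 and encodes cIAP1, its close relative, which with TRAF2 and TRAF3 marks NIK for destruction. It was at 179.8, 186 and 195 CPM in NC, 162, 164.5 and 164 CPM with SKP2-1, and 146, 143 and 148 CPM with SKP2-2. The groups did not overlap and ran from NC to SKP2-1 to SKP2-2. BIRC2 was 1.14 times lower with SKP2-1 (log2 fold change -0.19, SE 0.04, adjusted p = 0.0022), and the decrease with SKP2-2 was 1.28-fold (-0.36, SE 0.04, adjusted p = 1.18e-05). The siRNAs differed by -0.17 (SE 0.04, adjusted p = 0.00532). BIRC2 and BIRC3 are related in sequence, and how the counting treated reads that match both is not given in the sources used here.

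In the wider pathway, receptors were mostly higher with both siRNAs. Of 11 receptor genes that signal to NF-kappa-B, 6 were higher and 1 lower with SKP2-1, and 8 higher and 1 lower with SKP2-2, with median log2 fold changes of 0.22 and 0.38. Of all genes tested, 25% were higher and 20.5% lower with SKP2-1, and 25.2% higher and 24.1% lower with SKP2-2. The most abundant was TNFRSF1A, the main TNF receptor (0.22, adjusted p = 0.00158, with SKP2-1 and 0.51, adjusted p = 9.94e-07, with SKP2-2). LTBR, the lymphotoxin receptor that feeds the noncanonical arm, rose by 0.52 (adjusted p = 7.74e-06) and 0.40 (adjusted p = 6.34e-05). TLR4, the receptor for bacterial lipopolysaccharide, rose by 0.94 (adjusted p = 6.46e-09) and 0.59 (adjusted p = 5.01e-07). TNFRSF12A, the TWEAK receptor, rose by 0.20 with SKP2-2 (adjusted p = 0.00386) and was at -0.06 with SKP2-1 (adjusted p = 0.334).

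Kinases and adaptors moved both ways. Of 13 genes of the IKK complex and its upstream kinases, 5 were higher and 4 lower with SKP2-1, and 3 higher and 2 lower with SKP2-2 (medians -0.08 and 0.01). Over all genes tested, 25% were higher and 20.5% lower with SKP2-1, and 25.2% higher and 24.1% lower with SKP2-2. TAB2, an adaptor of the kinase TAK1, fell by 0.43 on the log2 scale with SKP2-2 (adjusted p = 1.41e-05); with SKP2-1 it was at -0.11 (adjusted p = 0.106), which passed without both NC replicate 1 and SKP2-2 replicate 3 (-0.17, adjusted p = 0.00241). RIPK1, the kinase at TNF receptors that cIAPs ubiquitinate, rose by 0.21 with SKP2-1 (adjusted p = 0.00103) and fell by 0.44 with SKP2-2 (adjusted p = 1.43e-06). CHUK, encoding IKK alpha, fell by 0.28 with SKP2-1 (adjusted p = 0.00142), and IKBKE rose with both (0.32, adjusted p = 7.56e-05, and 0.22, adjusted p = 0.00139). Of 14 TRAF adaptors and parts of the linear ubiquitin ligase, 5 were higher and 4 lower with SKP2-1, and 5 higher and 1 lower with SKP2-2 (medians 0.02 and 0.10). The most abundant, IRAK1, a kinase of interleukin-1 and Toll-like receptor signalling, went from 240 CPM in NC to 95.6 CPM with SKP2-1 (-1.33, adjusted p = 0.000371) and 300.3 CPM with SKP2-2 (0.32, adjusted p = 0.129). Its NC libraries ran from 196 to 294 CPM; without both NC replicate 1 and SKP2-2 replicate 3 the values for IRAK1 were -1.17 (adjusted p = 8.19e-05) and 0.40 (adjusted p = 0.0155), so the rise with SKP2-2 then passed. XIAP, the third inhibitor of apoptosis of this kind, passed with neither siRNA (0.07, adjusted p = 0.288, and 0.12, adjusted p = 0.0587), and neither did RBCK1 (adjusted p = 0.488 and 0.963).

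The partners of the cIAPs in restraining NIK were looked at after their values were seen. TRAF3 was 88.3 CPM in NC, fell by 0.32 with SKP2-1 (adjusted p = 0.000239) and rose by 0.23 with SKP2-2 (adjusted p = 0.00257). TRAF2 fell by 0.57 with SKP2-1 (adjusted p = 0.00768) and was at 0.01 with SKP2-2 (adjusted p = 0.948). With the same libraries left out TRAF2 was at -0.43 (adjusted p = 0.000302) and 0.09 (adjusted p = 0.368). MAP3K14, encoding NIK itself, fell by 0.21 with SKP2-1 (adjusted p = 0.00727) and rose by 0.42 with SKP2-2 (adjusted p = 2.54e-05), from 47.8 CPM in NC to 41.4 and 63.9 CPM. NIK is controlled mainly as a protein, which was not measured.

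Of 11 other I-kappa-B proteins and feedback inhibitors, 2 were higher and 2 lower with each siRNA (medians -0.03 and -0.08). The shares over all genes tested were 25% higher and 20.5% lower with SKP2-1, and 25.2% higher and 24.1% lower with SKP2-2. TNIP1, which works with A20, was the most abundant and rose by 0.23 with SKP2-2 (adjusted p = 0.00136). NFKBIZ, a nuclear I-kappa-B, rose by 0.34 with SKP2-1 (adjusted p = 0.000572) and did not pass with SKP2-2 (adjusted p = 0.975). OTULIN, which removes linear ubiquitin, passed with neither (adjusted p = 0.415 and 0.398), nor did ZC3H12A (0.441 and 0.181), which passed with SKP2-2 without both those libraries (0.48, adjusted p = 0.0393). Of the 5 parts of the SCF ligase that recognizes phosphorylated I-kappa-B, 3 were higher and 1 lower with each siRNA (medians 0.14 and 0.24). Its substrate receptors BTRC (0.38, adjusted p = 0.000117, and 0.49, adjusted p = 8.76e-06) and FBXW11 (0.14, adjusted p = 0.0339, and 0.24, adjusted p = 0.00176) rose with both, though FBXW11 did not pass with SKP2-1 without both those libraries (0.08, adjusted p = 0.0812). CUL1 fell by 0.17 with SKP2-1 (adjusted p = 0.00674) and SKP1 fell by 0.16 with SKP2-2 (adjusted p = 0.016).

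Genes commonly cited as NF-kappa-B targets went different ways with the siRNAs. Of 28 listed, 25 were tested. With SKP2-1, 13 were higher and 3 lower, and with SKP2-2, 4 were higher and 12 lower. Without both NC replicate 1 and SKP2-2 replicate 3, 26 were tested. Then 14 were higher and 4 lower with SKP2-1, and 4 higher and 11 lower with SKP2-2. The shares over all genes were 25% higher and 20.5% lower with SKP2-1, and 25.2% higher and 24.1% lower with SKP2-2. Their median log2 fold change was 0.18 with SKP2-1 and -0.22 with SKP2-2. Between the siRNAs 15 were lower and 4 higher with SKP2-2, with a median of -0.64 against 0.03 over all genes, where 25.3% of genes were lower. CXCL8, the neutrophil chemokine, was 404 CPM in NC, 415 CPM with SKP2-1 (0.04, adjusted p = 0.625) and 149.9 CPM with SKP2-2 (-1.43, adjusted p = 8.88e-10). IER3, an early response gene, fell by 0.46 with SKP2-2 (adjusted p = 0.0068; 0.0533 without both NC replicate 1 and SKP2-2 replicate 3) and was at 0.18 with SKP2-1 (adjusted p = 0.208). BCL2L1, encoding the survival protein BCL-XL, rose with both (0.17, adjusted p = 0.0039, and 0.33, adjusted p = 1.55e-05), and PLAU, encoding urokinase, fell by 0.50 with SKP2-1 (adjusted p = 1.45e-06) and was at -0.07 with SKP2-2 (adjusted p = 0.24). The list was written with earlier results of these data known and has no test of its own.

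Markers of immune cells, which use this pathway heavily, were low in each group and higher in the knockdown libraries. Their summed level over 9 listed genes was 3.05 to 3.79 CPM in NC, 5.97 to 6.69 CPM with SKP2-1 and 5.18 to 5.58 CPM with SKP2-2. MS4A1 and NKG7 were at 0 counts in each library, and PTPRC, the common leukocyte antigen, was at 0.419, 1.04 and 0.85 CPM in the group means. Of the 4 immune markers tested, 4 were higher with SKP2-1 and 3 with SKP2-2, against 25% and 25.2% of all genes tested. Over 5 endothelial markers the sum was 6.91 to 7.96 CPM in NC, 15.6 to 17.4 CPM with SKP2-1 and 7.87 to 9.36 CPM with SKP2-2, with CLDN5 at 0 counts. Over 5 fibroblast markers it was 7.03 to 8.71, 10.3 to 11.3 and 8.09 to 9.45 CPM, and over 5 luminal markers 11.7 to 14.98, 14.8 to 16.5 and 12.5 to 16.6 CPM. Of the 2 endothelial markers tested, 2 were higher with SKP2-1 and 1 with SKP2-2. The 2 fibroblast markers tested gave the same counts. Without both NC replicate 1 and SKP2-2 replicate 3, 3 fibroblast markers were tested and 1 was higher with each siRNA. Of the 3 luminal markers tested, 1 was higher with SKP2-1 and 1 lower with SKP2-2. Each of the 10 genes was above 10 CPM in every library, and the part of these markers in the results was not tested.

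**Figure D5:**
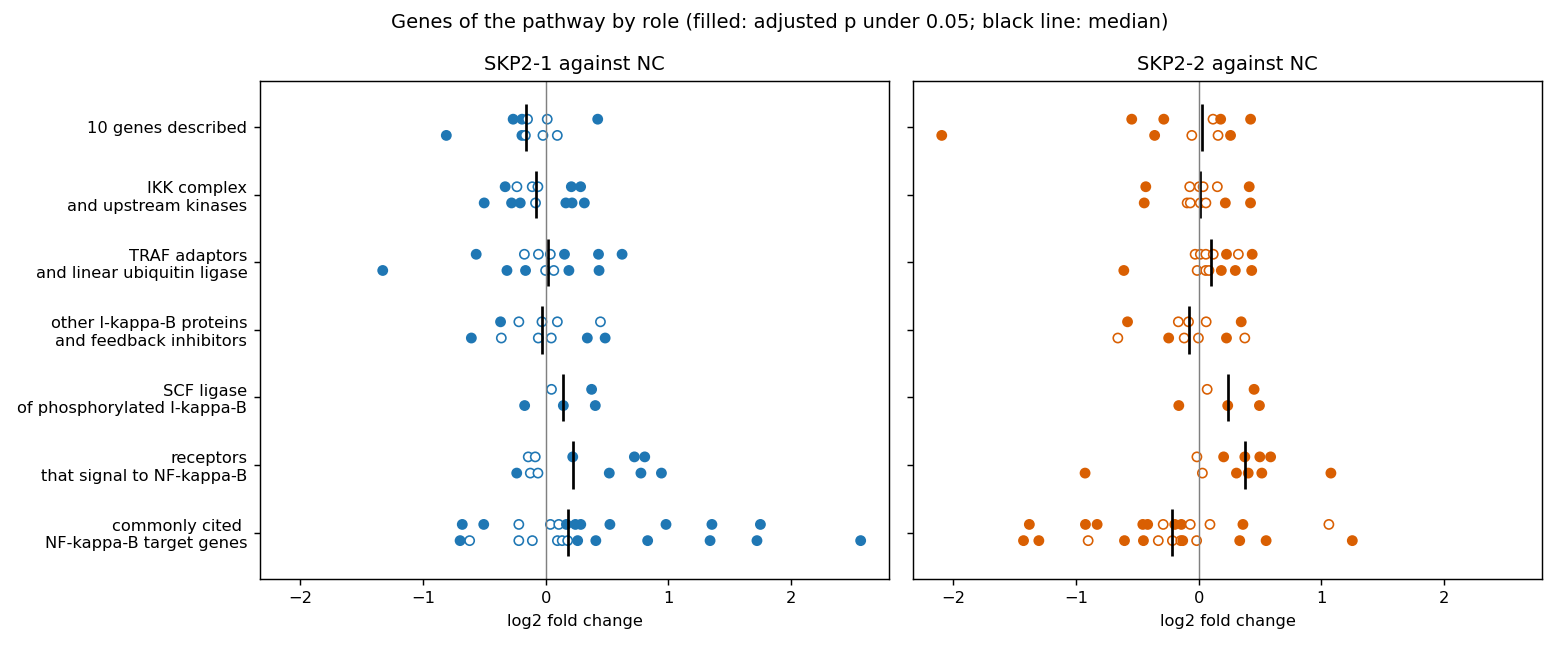
Log2 fold change of the tested genes of the pathway against NC (x axis), by role (rows), with SKP2-1 on the left and SKP2-2 on the right; filled circles have an adjusted p under 0.05 and black lines are medians. The target genes have a median of 0.18 with SKP2-1 and of -0.22 with SKP2-2, and the receptors 0.22 and 0.38.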

How the data were processed

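For RNA-seq of 9 libraries the authors deposited raw counts of reads, by Ensembl gene identifier and without normalization. HTSeq 0.6.1, STAR, DESeq2 1.16.1, FastQC 0.11.2 and Trim Galore 0.4.1 are named in the submitters' processing notes; settings, genome build, annotation and strand are not given in the sources used here. Reads in no gene or in several genes (9.27 to 9.79% of reads) were left out of library totals. Symbols came from the supplied name table, and coordinates and exon lengths from GENCODE 29 (GRCh38), matched by identifier.

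Genes were kept by filterByExpr (minimum count 10, minimum total 15), scaled by TMM and fitted with edgeR 4.0.16 in R 4.3.3 (quasi-likelihood, robust, group as the only term, all 9 libraries). The threshold was a Benjamini-Hochberg adjusted p of 0.05, two-sided. Each SE was derived from the log2 fold change and its F statistic. Alternatives were other scalings, filters, DESeq2 1.42.0, a replicate block, fewer libraries, and another gene length.

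The genes described, the pathway lists and the tests were chosen with earlier results of these data known. All 10 genes are named; other lists are given by counts, with their 4 most abundant members, except where stated. Libraries of 1 group differed by more than sampling noise (chi-square per degree of freedom 2.44 to 48.9), so none was merged.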

Additional observations from a re-analysis of the deposited data

How the results depend on the processing

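Each of the 3 comparisons was repeated under 17 alternatives. The number of the 10 genes called ran from 5 to 7 with SKP2-1, 5 to 8 with SKP2-2 and 7 to 9 between the siRNAs. Over all genes, leaving out 1 library gave 6429 to 8118 calls with SKP2-1, 7190 to 9149 with SKP2-2 and 7160 to 9414 between the siRNAs. Of the 510 repeated values of single genes, 487 kept their side of the threshold, 15 lost and 8 gained a call; no called value turned its direction. The replicate numbers pair no samples by the labels, and deviations of same-numbered libraries correlated between -0.71 and 0.099. With the replicate block 5, 6 and 8 of the 10 genes were called (6818, 7501 and 7500 genes in all), and the only call of the 10 genes that it changed was NFKBIE with SKP2-2 (0.42, adjusted p = 0.0658). Scaling by library size alone gave a call for NFKB1 with SKP2-2 (adjusted p = 0.0103) and NFKBIA with SKP2-1 (0.0239), and lost TNFAIP3 between the siRNAs (0.0512). With only both compared groups in the fit, calls with SKP2-1 were 3341 higher and 4255 lower, against 4150 and 3398. In that fit the log2 fold change with SKP2-1 was lower for each of the 10 genes. REL was at -0.88 against -0.81, NFKB1 at -0.33 against -0.26, and BIRC3 at -0.09 against -0.02. Library-size scaling moved the median of all genes by at most 0.04 on the log2 scale. The 10 genes had 444 or more reads in each library, and markers near 0 had few.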

Other observations

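The genes whose pattern over the 9 libraries was most like those of BIRC3 and REL were looked up, so their direction follows from the choice. Likeness was the root mean square difference of log2 levels, each gene centred on its own mean, over 12129 other genes of at least 2 CPM, and a description without a test. FAM241A (0.0531), MGAT4A (0.0594), GXYLT1 (0.0901), ARF4 (0.103) and ENPP4 (0.107) were nearest to BIRC3, against a median of 1.01. FAM241A was 29.9 CPM in NC, 30.9 CPM with SKP2-1 and 7.21 CPM with SKP2-2, and ARF4, a small GTPase of the Golgi, was 343, 393 and 92.0 CPM. For REL, the member with the second widest range, the nearest were POLA2 (0.0314), NDC1 (0.0339), MCM4 (0.0339), PHF10 (0.0386) and BARD1 (0.0401), against a median of 0.391. POLA2 was 26.6, 14.9 and 18.2 CPM in NC, SKP2-1 and SKP2-2, and MCM4 was 218, 128 and 151 CPM.

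The nearest tested genes on each side of BIRC3 and BIRC2 on chromosome 11 changed less than BIRC3 with SKP2-2. Genes with too few reads to test were passed over, so these need not be the adjacent genes. ENSG00000277459, 207 kb before the pair, was under 1 CPM in the group means. It passed with neither siRNA (-0.10, edgeR adjusted p = 0.824, with SKP2-1 and -0.04, adjusted p = 0.936, with SKP2-2). YAP1, 84.0 kb before the pair and encoding a transcriptional coactivator, fell by 0.48 on the log2 scale with SKP2-2 (edgeR adjusted p = 5.44e-06) and rose by 0.16 with SKP2-1 (adjusted p = 0.0211). TMEM123, 17.7 kb after the pair, rose by 0.22 with SKP2-2 (adjusted p = 0.00248) and fell by 0.39 with SKP2-1 (adjusted p = 3.04e-05). CFAP300 was 2.71, 3.39 and 4.82 CPM in NC, SKP2-1 and SKP2-2, and rose with both (0.32, adjusted p = 0.0217, and 0.83, adjusted p = 1.43e-05). MMP10, at 0.514, 1.12 and 0.346 CPM, rose with SKP2-1 (1.098, adjusted p = 0.00156) and did not pass with SKP2-2 (-0.57, adjusted p = 0.108). MMP1, a collagenase gene 411 kb after the pair, was 20.6, 127.9 and 18.7 CPM, higher with SKP2-1 (2.63, adjusted p = 4.47e-11) and at -0.14 with SKP2-2 (adjusted p = 0.129).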
